A study of Mus musculus with 4 samples.

Results

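Total RNA from the liver mitochondria of a db mouse line was compared with that from wild-type mice, across every annotated feature rather than along pathway lists alone. The comparison rests on 1 sequencing library per group. Of 37819 features in the deposited table, 3058 had 10 or more counts in at least 1 of the 2 libraries and make up the comparison. Of these, 1205 had that many counts in both libraries, 1690 in db alone and 163 in wild-type alone. At the edge of the filter, 265 features had exactly 10 counts in the higher library and were kept, and 319 had 9 and were left out.

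The wild-type label gives strain C57BL/6J. The db library's genotype label names a BKS line with the Leprdb allele, without saying whether it is homozygous, but its strain label gives C57BL/6J. BKS denotes the C57BLKS background, which differs from C57BL/6J at many loci, so strain background and leptin receptor mutation cannot be told apart. The ob (B6.Cg-Lepob/J) and NASH (wild type-NASH) libraries of the series are given beside the values only to place them. All 4 came from mice of postnatal week 7, and the sources used here do not give the number of mice behind a library. The files held 627890 counts for wild-type, 1000306 for ob, 529815 for NASH and 1005915 for db. After scaling with trimmed means of M values (TMM), a method that seeks a common centre for most features, a db count has to be divided by 2.45 to be set beside a wild-type count, an ob count by 3.49 and a NASH count by 1.13.

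Leptin, a hormone made by fat tissue, acts on its receptor in the brain to limit feeding, and the Leprdb allele disrupts the long signalling form of that receptor. Mice homozygous for it overeat, store fat in the liver and become resistant to insulin. The hepatocyte, the main liver cell, makes most plasma proteins on ribosomes bound to the endoplasmic reticulum (ER), a membrane system that touches the mitochondria at contact sites. RNA prepared from liver mitochondria can therefore hold transcripts of the mitochondrial genome, nuclear transcripts at the mitochondrial surface, and transcripts of other compartments that come along.

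No test was possible with 1 library per group, and every difference below has no replicate check. Levels are in counts per 1000000 of the scaled library (CPM), and calls of higher or lower needed a difference of log2(CPM + 1) of at least 1, that is 2-fold. Folds are ratios of scaled counts, and the range beside each is an exact binomial 95% interval that covers counting error only. By this rule 1146 features were higher in db (37.5%) and 472 were lower (15.4%). When the interval also had to exclude equality, 793 were higher (25.9%) and 404 lower (13.2%). The median difference over all 3058 features was 0.52 on the log2 scale, so the medians of gene groups below are also given relative to it. A feature kept through db alone had to lie towards the higher side. Of the 1690 such features 830 were higher and 14 lower (median 0.93). Lists below whose members mostly passed that way are to be read beside this share. Among the 1368 features with 10 or more wild-type counts, 316 were higher and 458 lower (median -0.33). The 5 other scalings tried moved that overall median by between -0.55 and 0.58.

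**Figure D1:**
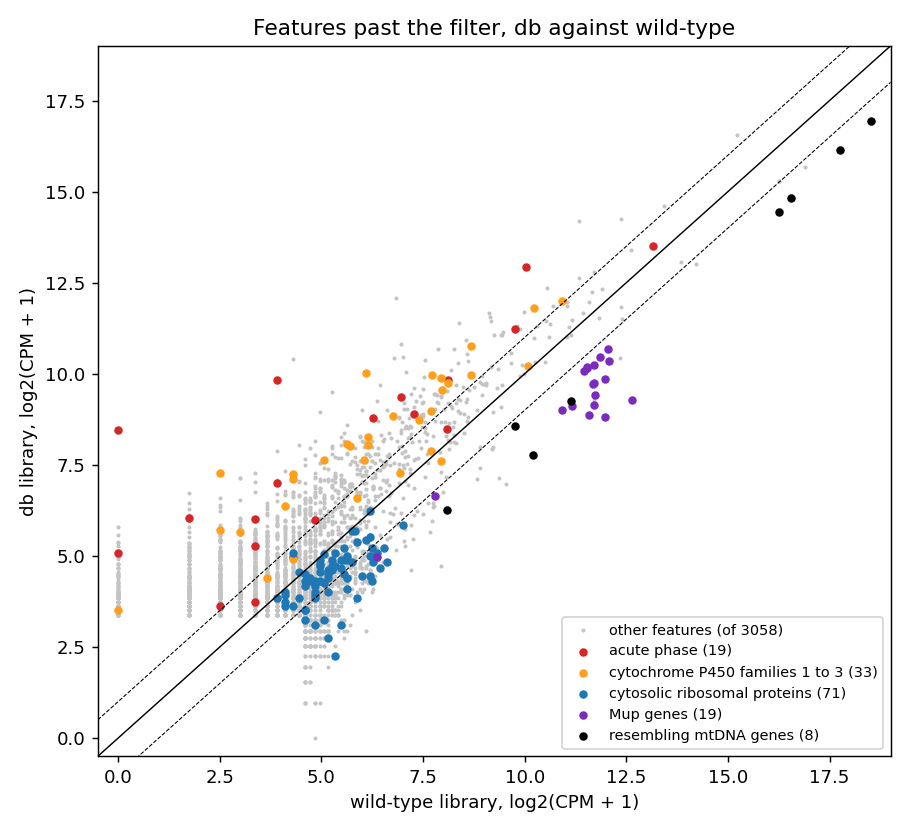
Each point is 1 of the 3058 features, with log2(CPM + 1) in the wild-type library on the horizontal axis and in the db library on the vertical axis; the solid line marks equality and the dashed lines a 2-fold difference. Acute phase genes and cytochrome P450 genes lie mostly above the upper line, while the 19 Mup genes and the 8 features that resemble mitochondrial genes lie below the lower one.

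The label genes were near the floor of detection and check little. Lepr, which encodes the receptor, had 0, 4, 0 and 2 counts across wild-type, ob, NASH and db. Leprot, a neighbour of Lepr, had 1, 5, 3 and 3 counts in the same order, and Lep, the leptin gene, had 0 in all 4 libraries. With both libraries at or under 3 counts, no fold is given for these genes. Nnt, the mitochondrial transhydrogenase in which C57BL/6J carries a known deletion of several exons, had 1, 32, 0 and 47 counts across wild-type, ob, NASH and db, a ratio of 19.2 (3.28 to 774).

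The tissue label held for both libraries. All 7 hepatocyte markers passed the filter, and 4 of them were higher in db and 0 lower. Alb, the gene of serum albumin, had 16453, 42417, 2225 and 102012 counts across wild-type, ob, NASH and db, 2.53-fold higher in db (2.49 to 2.57). Fgb, a fibrinogen chain, had 979 and 2240 counts in wild-type and db and was level between them (ratio of wild-type to db 1.07, 0.992 to 1.15). The deposited table lists no feature of the mitochondrial chromosome, and the compartment was read from 8 nuclear features whose transcripts are at least 85% identical to a mitochondrial gene. These took 53.2% of wild-type counts and 26.3% of db counts, beside 28.7% for ob and 75.5% for NASH. All 8 were lower in db, and their summed level was 3.09-fold lower (3.08 to 3.11), or 2.03-fold to 4.73-fold over the scalings. The share of such counts differed between the libraries compared, and its part in the differences below was not tested.

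By Gene Type, most of the comparison was protein-coding: 3011 features, of which 1136 were higher and 459 lower. Without the protein-coding features that resemble mitochondrial genes, this class held 24.2% of counts in wild-type (24.1 to 24.3) and 57.1% in db (57 to 57.2), and its summed level was 1.54-fold higher in db (1.53 to 1.55), or 1.01-fold to 2.36-fold over the scalings. Annotated pseudogenes went from 38.0% of counts in wild-type to 18.7% in db, mainly through copies of mitochondrial genes such as Gm13340, 97.6% identical to mt-Co1, which had 161934 counts in wild-type and 132559 in db. The class labelled misc_RNA, nearly all of it copies of the signal recognition particle RNA that docks ribosomes on the ER, was 1.92-fold lower in db (1.90 to 1.94), and 1 of its 11 features was called higher and 0 lower.

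The 5 features annotated as microRNAs took 10.5% of counts in wild-type and 6.91% in db, and 4 of the 5 were called lower. These 4 are near-identical copies of 1 short sequence in several places of the genome. Reads cannot be assigned among the 3 that share every base, and the letters, from the genome build GRCm38, show where Gm25911 departs from them. Capitals mark the base that differs from Gm23935 in the shorter copy, which also lacks 1 base.
Gm23935: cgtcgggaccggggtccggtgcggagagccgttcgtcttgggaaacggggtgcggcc
Gm24245: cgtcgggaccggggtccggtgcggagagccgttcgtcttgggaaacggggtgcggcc
Gm25911: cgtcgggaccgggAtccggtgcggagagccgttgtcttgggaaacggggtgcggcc
Gm23935 lies on chromosome 16 (chr16:11144125-11144181, plus strand), Gm24245 on chromosome 4 (chr4:139338304-139338360, plus strand) and Gm25911 on chromosome 1 (chr1:167340369-167340424, minus strand). The fourth copy, Gm24270 on chromosome 9, has the 57 bases of Gm23935. Gm23935 had 53092 counts in wild-type and 55269 in db, 2.35-fold lower in db (2.32 to 2.38), and Gm25911 had 2247 and 1461, 3.77-fold lower (3.52 to 4.02). Mir5105, the other member of the class, had 2289 and 3850 counts and was 1.46-fold lower (1.38 to 1.53), short of a call.

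Among long non-coding RNAs, Neat1, the scaffold of nuclear paraspeckles, had 7, 7450, 5 and 109 counts across wild-type, ob, NASH and db, 6.36-fold higher in db (2.98 to 16.2). Malat1, a nuclear speckle RNA, had 75, 6797, 77 and 260 counts and stayed within 2-fold (1.42, 1.09 to 1.86). Meg3, an imprinted RNA, had 20 and 15 counts in wild-type and db and was 3.26-fold lower (1.59 to 6.85). C4a, annotated here as a processed transcript, is described with the complement genes, and the other 2 features of that type, Gm20427 (5 and 31 counts in wild-type and db) and Tmem134 (3 and 17), were also called higher.

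Short structural RNAs were near level. Rmrp, the RNA of RNase MRP, which cuts ribosomal RNA precursors, had 37, 1653, 17 and 122 counts across wild-type, ob, NASH and db (1.35-fold higher in db, 0.926 to 2.0). Rpph1, the RNA of RNase P, which trims transfer RNA precursors, had 85 counts in wild-type and 196 in db (log2 difference -0.09). Rn7sk, which holds back transcription elongation, had 56 and 180 (1.31-fold, 0.968 to 1.81). The 4 snoRNA features are copies of U3, each with 5 counts in wild-type, 202 in ob and 13 in db, and none was called. Of 16 pseudogenes 3 were higher and 7 lower. The lower ones were 6 copies of mitochondrial genes and Gm1821, and the higher ones were Cyp2c53-ps (1 and 13 counts in wild-type and db), Gm10499 (0 and 11) and the class I relic H2-K2 (4 and 35).

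Higher and lower features differed in where the encoded protein goes. Location came from the Gene Ontology terms in the deposited table, and the 15 classes were chosen after the table was seen. Of 928 protein-coding features annotated as membrane-spanning, 59.4% were higher in db and 3.23% lower, and of 251 in the ER membrane 61.4% were higher and 3.19% lower, beside 37.5% and 15.4% over all features. Features of the extracellular space (54.8% of 199 higher), the Golgi membrane (51.5% of 97) and the lysosome (50% of 86) were close to these. Of 633 nuclear features 19.6% were higher and 25.3% lower, of 223 cytosolic ones 18.8% and 24.7%, and of 55 cytoskeletal ones 18.2% and 34.5%. In the ribosome class 1 of 69 was higher and 24 lower. Of 381 mitochondrial features 34.4% were higher and 10.2% lower. Among the 138 of them with 10 or more wild-type counts, 14.5% were higher and 27.5% lower (median -0.45). All 1339 protein-coding features with that many wild-type counts leaned the same way, with 23.5% higher and 33.1% lower (median -0.28).

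**Figure D2:**
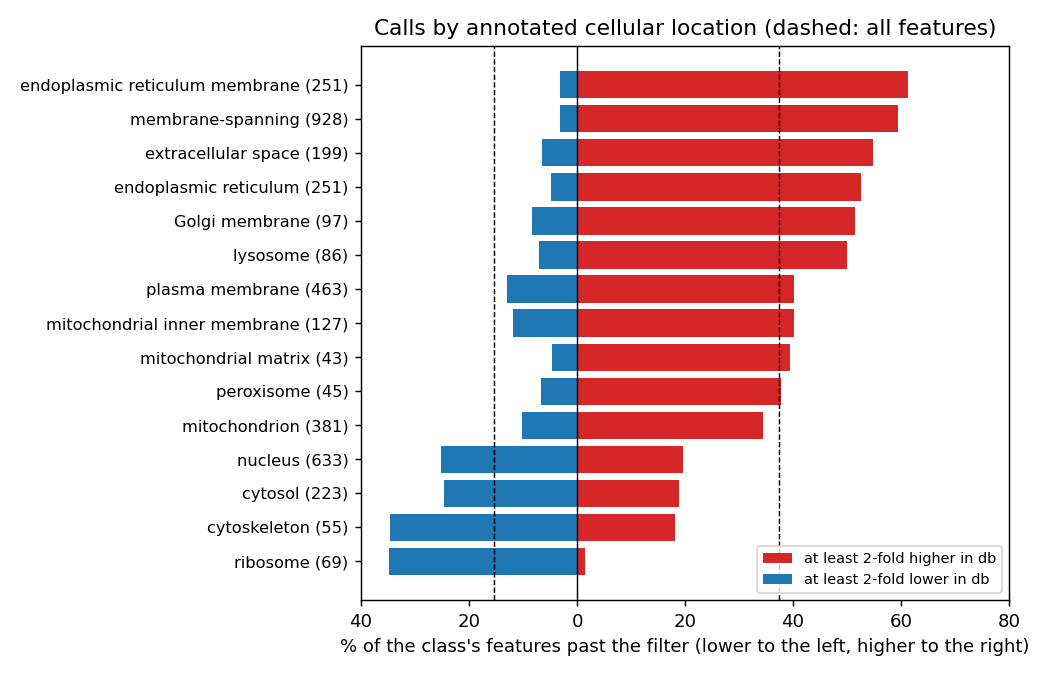
Bars show the percentage of each class's features past the filter that were at least 2-fold higher in db (right) or at least 2-fold lower (left), with the number of features in parentheses and dashed lines at 37.5% and 15.4% for all features. The ER membrane and membrane-spanning classes have the highest shares on the right, and the ribosome class the smallest.

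Features that wild-type alone would have let through kept the contrast between these broad groups, though not the order of every class. With 10 or more wild-type counts, 214 of 508 membrane-spanning or extracellular features were higher and 64 lower (median 0.84), whereas 101 of 827 other annotated features were higher and 377 lower (median -0.88). In that subset the shares higher were 46.3% for membrane-spanning features and 48.4% for the Golgi membrane, and 6.67%, 7.94% and 9.68% for nuclear, cytosolic and cytoskeletal ones. Over all protein-coding features of that subset, 23.5% were higher and 33.1% lower. Of the Golgi membrane features there 25.8% were lower. Plasma membrane features did not follow the contrast, with 23.5% higher and 29% lower, near the shares over all. Transcript length, taken as the longest coding transcript per gene in GENCODE M21, followed the difference weakly, with a Spearman coefficient of 0.06 across 3004 features, which share both libraries and are not independent. Among the shortest transcripts, up to 1938 bases, the median was 1.02 for membrane-spanning or extracellular features and -0.16 for the other annotated ones. Among the longest, above 4710 bases, the medians were 1.23 and 0.08.

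**Figure D3:**
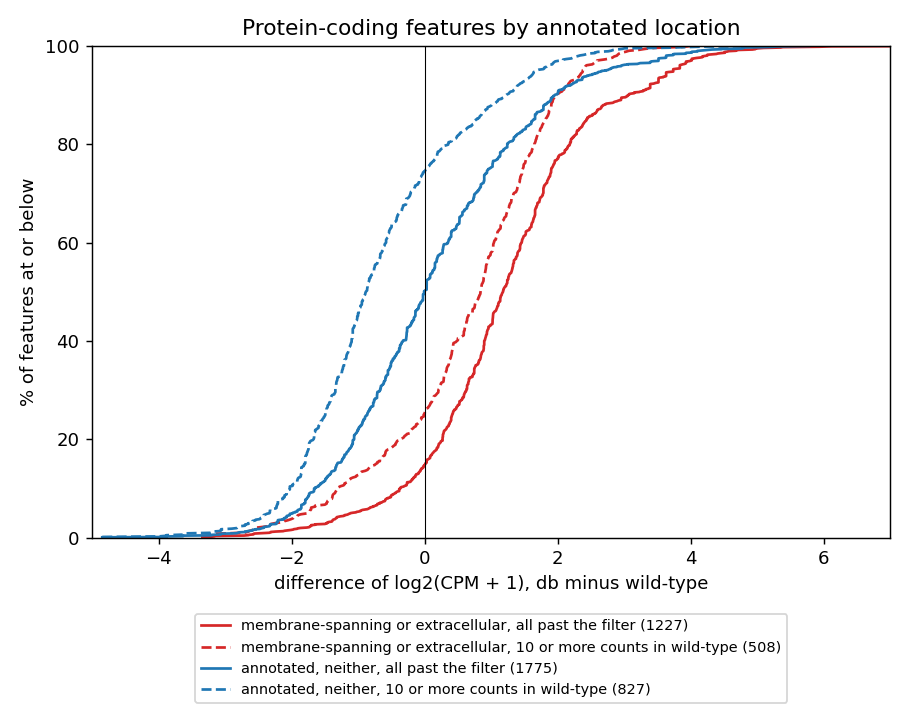
Curves give the percentage of protein-coding features (vertical axis) at or below each difference of log2(CPM + 1), db minus wild-type (horizontal axis), for membrane-spanning or extracellular features in red and other annotated features in blue; dashed curves keep features with 10 or more wild-type counts. The red curves lie to the right of the blue ones in both cases, with medians of 1.18 and -0.01 over all features past the filter.

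Acute phase proteins, which the liver secretes in larger amounts during inflammation, were mostly higher in db. Of 19 list members past the filter, 15 were higher in db and 0 lower, with a median of 1.92, which is 1.40 above that of all features; 10 of the 19 had passed through db alone. Over all 6 scalings between 11 and 17 were higher and 0 lower. Saa2, a serum amyloid A that circulates on lipoproteins, had 0, 9, 0 and 370 counts across wild-type, ob, NASH and db, at least 50.4-fold higher in db against a floor of 3 counts. Saa1, its neighbour, had 6, 32, 1 and 960 counts in that order, a 65.4-fold difference (29.9 to 179). Both genes had a far higher CPM in db than in any of the other 3 libraries. Their transcripts are 96.7% identical, so the split of reads between them is uncertain.

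Orm2, an orosomucoid that binds drugs in plasma, had 6, 69, 2 and 134 counts and was 9.12-fold higher in db than in wild-type (4.08 to 25.3). Orm3 had 0, 29, 2 and 35 counts, at least 4.77-fold higher. Apcs, the serum amyloid P component, had 1, 24, 1 and 69 counts, a ratio of 28.2 (4.89 to 1129). Hp, the haemoglobin scavenger haptoglobin, had 448, 1953, 166 and 8196 counts and was 7.47-fold higher (6.79 to 8.24), and Lcn2, the siderophore binder lipocalin 2, had 4 and 67 counts in wild-type and db, 6.84-fold higher (2.55 to 25.8). Lrg1, an acute phase glycoprotein outside the list that was chosen after its values were seen, had 55 and 1489 counts and was 11.1-fold higher (8.45 to 14.8). The summed level of the acute phase list was 2.16-fold higher in db. The member with the most counts, Serpina3k, had 3971 and 12214 and differed by 1.26-fold (1.21 to 1.30). Without Serpina3k the list's summed level was 4.99-fold higher (4.71 to 5.29).

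The promoters of the Saa and Orm pairs are shown because their genes were higher together. They run from 250 bases before to 50 after the annotated start (RefSeq, GRCm38.p6), and capitals mark TTGCNNAA, a core recognised by C/EBP factors, which drive acute phase genes. It was searched on both strands, and each of these 4 windows held 1 site. The Orm2 site matches on both strands at the same position.
Saa1: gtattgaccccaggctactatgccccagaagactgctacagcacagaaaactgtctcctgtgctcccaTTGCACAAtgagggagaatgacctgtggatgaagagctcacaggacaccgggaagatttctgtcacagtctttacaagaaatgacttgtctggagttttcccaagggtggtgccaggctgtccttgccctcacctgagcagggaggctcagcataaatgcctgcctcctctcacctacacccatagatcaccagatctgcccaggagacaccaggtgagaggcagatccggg
Saa2: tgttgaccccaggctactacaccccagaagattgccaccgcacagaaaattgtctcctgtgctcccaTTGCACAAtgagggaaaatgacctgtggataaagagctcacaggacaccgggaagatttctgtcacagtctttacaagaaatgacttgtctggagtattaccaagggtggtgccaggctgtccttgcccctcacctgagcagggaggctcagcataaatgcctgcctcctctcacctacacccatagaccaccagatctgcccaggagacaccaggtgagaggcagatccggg
Orm2: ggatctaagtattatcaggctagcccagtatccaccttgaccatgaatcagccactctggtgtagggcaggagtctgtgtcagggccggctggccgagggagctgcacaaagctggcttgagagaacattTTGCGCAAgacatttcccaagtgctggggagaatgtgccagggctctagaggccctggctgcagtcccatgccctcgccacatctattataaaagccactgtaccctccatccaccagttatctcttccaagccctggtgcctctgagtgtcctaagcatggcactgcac
Orm3: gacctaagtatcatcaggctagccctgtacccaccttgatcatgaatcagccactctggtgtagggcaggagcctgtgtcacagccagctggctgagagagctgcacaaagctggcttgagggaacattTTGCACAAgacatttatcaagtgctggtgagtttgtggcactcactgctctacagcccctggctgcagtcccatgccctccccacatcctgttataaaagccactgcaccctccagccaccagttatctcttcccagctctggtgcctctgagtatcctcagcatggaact
The windows are chr7:46742931-46743230 on the minus strand, chr7:46751583-46751882 on the plus strand, chr4:63362199-63362498 on the plus strand and chr4:63355908-63356207 on the plus strand, in the order shown. The Saa1 and Saa2 windows are 95.3% identical and the Orm2 and Orm3 windows 86.3%. The motif was in 8 of 15 promoters of acute phase genes past the filter that were in the promoter table, in 10.8% of all 27025 promoters of this length, and in 11.1% of the 885 promoters of genes higher in db. Acute phase genes without it included Apcs, Itih3, Itih4 and Serpina3n, which were also higher in db. Its part in the levels was not tested.

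Complement genes, the plasma cascade that marks microbes and debris, were uneven. Of 21, 7 were higher and 2 lower (median 0.60, close to that of all features), and over the scalings their median ran from -0.01 to 1.21. C3, the protein on which its pathways meet, had 1117, 4495, 272 and 19637 counts across wild-type, ob, NASH and db, 7.18-fold higher in db (6.76 to 7.63). C4b had 242, 1623, 35 and 3447 counts, 5.82-fold higher (5.11 to 6.66), and C4a had 37, 272, 7 and 869, 9.59-fold higher (6.90 to 13.7). Their transcripts are 95.9% identical and share reads. Both genes lie within the major histocompatibility complex on chromosome 17. Expression, strain haplotype and mapping cannot be told apart there, as described below with the other genes of that region. Without C3 the summed complement level was 1.86-fold higher (1.78 to 1.95). Of 21 coagulation genes, 4 were higher and 0 lower (median 0.42, from -0.19 to 1.04 over the scalings), among them the cofactor F5 with 76 and 625 counts in wild-type and db (3.36-fold, 2.64 to 4.32).

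Genes of fatty acid handling were mostly higher in db. Of 19 members of the oxidation and ketogenesis list, 12 were higher and 0 lower (median 1.66), and 13 had passed through db alone. Cyp4a14, a microsomal fatty acid omega-hydroxylase and a known target of the lipid sensor PPAR alpha, had 49, 1419, 18 and 4611 counts across wild-type, ob, NASH and db, 38.4-fold higher in db (29.0 to 52.0). Cyp4a10 had 47, 349, 4 and 1473 counts, 12.8-fold higher (9.58 to 17.5). Its 97.2% identical copy Cyp4a32 had 4 and 164 counts in wild-type and db. Vnn1, the pantetheinase that frees the coenzyme A precursor, had 2, 101, 2 and 88 counts, a ratio of 18 (4.83 to 151). Hadhb, a subunit of the mitochondrial trifunctional protein, had 12 and 24 counts in wild-type and db (log2 difference -0.28).

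Lipid droplet and uptake genes had the highest list median, 3.32, with 5 of 9 members higher and 1 lower; 6 of the 9 had passed through db alone. That median fell to 0.84 when counts of 0 were set to the floor of 3 counts. Apoa4, an apolipoprotein secreted with triglyceride, had 8, 1906, 49 and 1430 counts across wild-type, ob, NASH and db, 73.0-fold higher in db than in wild-type (37.0 to 169). G0s2, an inhibitor of the triglyceride lipase ATGL, had 0, 50, 0 and 57 counts, at least 7.76-fold higher. Cd36, a fatty acid receptor, had 12, 337, 76 and 302 counts, 10.3-fold higher (5.80 to 20.1). Both db and ob were high and both wild-type and NASH low for Apoa4 and G0s2. Pnpla2, the gene of ATGL itself, had 10 and 9 counts in wild-type and db and was called lower (log2 difference -1.34), but the interval of its fold included equality (2.72-fold lower, 0.993 to 7.57). Of 18 apolipoprotein and assembly genes, 12 were higher and 1 lower. Among them were Apoe (4766 and 26192 counts, 2.24-fold, 2.18 to 2.32) and the remnant receptor Lrp1 (144 and 2868, 8.14-fold, 6.88 to 9.69). The lower one was Apom, a carrier of sphingosine 1-phosphate, 3.55-fold lower (1.94 to 6.62). In the fatty acid synthesis list, 8 of 12 were higher and 0 lower, and 5 had passed through db alone. Among the higher ones was Srebf1, the master regulator of the pathway, with 4, 276, 5 and 137 counts across wild-type, ob, NASH and db (14-fold, 5.34 to 52.1).

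**Figure D4:**
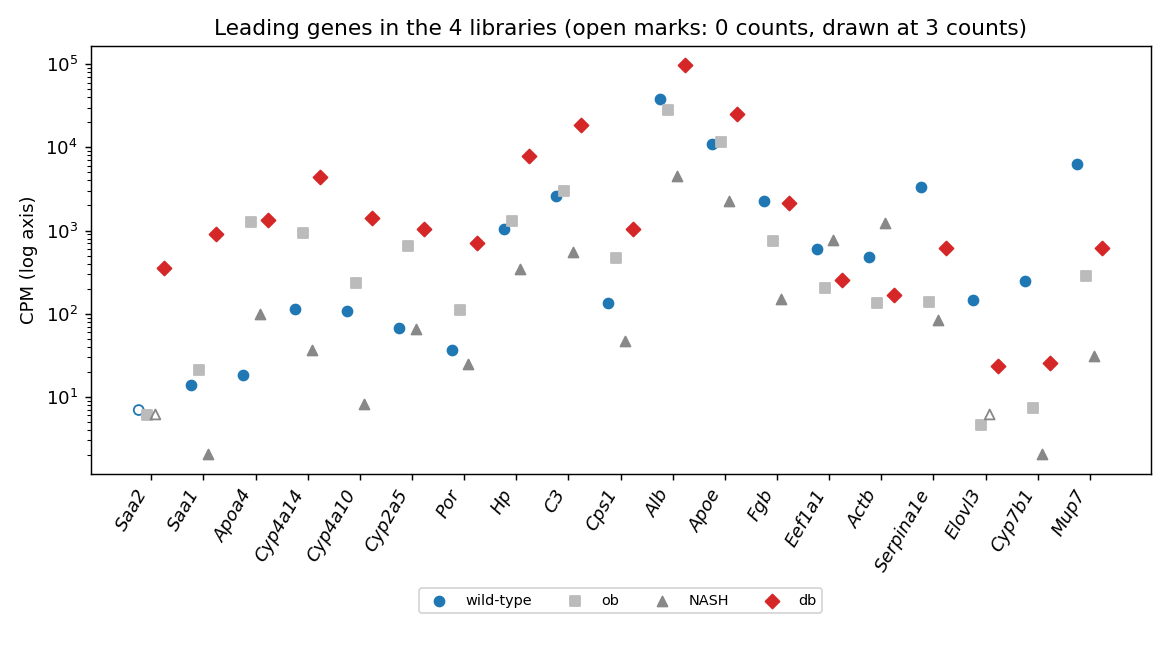
Levels of 19 genes in CPM on a log axis in the wild-type, ob, NASH and db libraries, 1 value per library, with open marks at 3 counts where a library had 0. From Saa2 to Cps1 the db mark is the highest of the 4, and from Eef1a1 to Mup7 the db mark is below the wild-type mark.

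Sterol genes leaned the same way. Of 16 cholesterol synthesis and uptake genes, 12 were higher and 0 lower (median 1.76), and 7 had passed through db alone. Dhcr7 (5.46-fold, 2.67 to 13) and Msmo1 (5-fold, 2.78 to 9.91), both enzymes of late synthesis, were among those higher, and Hmgcs1, an early enzyme, had 14 and 41 counts and was within 2-fold (1.20, 0.639 to 2.38).

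Bile acid genes had 10 of 13 members higher and 1 lower, and 4 had passed through db alone. Cyp8b1, the sterol 12 alpha-hydroxylase that sets the cholic acid share, had 63 and 737 counts in wild-type and db, 4.78-fold higher (3.69 to 6.28), and the phospholipid exporter Abcb4 was 5.03-fold higher (3.58 to 7.27). The lower one was Cyp7b1, the oxysterol 7 alpha-hydroxylase of the alternative pathway, which had 106, 11, 1 and 27 counts across wild-type, ob, NASH and db, 9.61-fold lower in db (6.25 to 15.3).

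Of 33 cytochrome P450 genes of families 1 to 3, which oxidise drugs and steroids in the ER, 25 were higher in db and 0 lower (median 1.92), and 10 had passed through db alone. Cyp2a5, a coumarin hydroxylase, had 29, 968, 32 and 1088 counts across wild-type, ob, NASH and db, 15.3-fold higher in db than in wild-type (10.6 to 23). Cyp2a4, whose transcript is 98.2% identical to that of Cyp2a5, had 2, 269, 1 and 163 counts, and the split between them is uncertain. Por, the reductase that passes electrons to these enzymes, had 16, 169, 12 and 757 counts, 19.3-fold higher (11.8 to 34.0). The P450 with the most db counts, Cyp3a11, had 830 and 4359 and was 2.15-fold higher (1.99 to 2.31), and Cyp2c70 was within 2-fold (log2 difference -0.33). Retinoid and vitamin genes had 12 of 17 higher and 0 lower, with 8 passing through db alone. Cyp26a1, which degrades retinoic acid, had 0, 36, 0 and 36 counts in the 4 libraries, at least 4.90-fold higher in db. Retsat, a retinol saturase, had 81, 476, 2 and 1411 counts, 7.12-fold higher (5.69 to 9.02).

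Genes of nitrogen and glucose metabolism had few wild-type counts. Of 5 urea cycle genes past the filter 4 were higher and 0 lower, and 3 had passed through db alone. Cps1, the mitochondrial enzyme that commits ammonia to urea, had 58, 702, 23 and 1115 counts across wild-type, ob, NASH and db, 7.85-fold higher in db (6.03 to 10.4). It made up 81.9% of the list's db counts. Of 22 amino acid catabolism genes 11 were higher and 0 lower, but 17 of the 22 had passed through db alone. Over all 1690 features kept through db alone, 830 were higher and 14 lower, so the list's counts were near that share. The higher ones included Prodh, which starts proline breakdown (2 and 79 counts in wild-type and db), and the transaminases Gpt (3 and 58) and Got2 (3 and 56). In the glucose list 7 of 10 were higher and 0 lower, and 4 had passed through db alone. Pck1, a rate-setting enzyme of gluconeogenesis, had 7, 166, 11 and 169 counts, 9.86-fold higher in db (4.68 to 24.9), and Slc37a4, the ER carrier of glucose 6-phosphate, was 6.13-fold higher (3.90 to 10.2). Insr, the insulin receptor, had 9, 93, 3 and 137 counts, 6.22-fold higher (3.18 to 13.9), and Igfbp2, a binding protein of insulin-like growth factors, had 92, 8, 24 and 91 counts, 2.48-fold lower (1.83 to 3.34).

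Lists of the secretory pathway and the cell surface differed among themselves. Of 21 ER chaperones 13 were higher and 0 lower, with 8 passing through db alone. The higher ones included the disulfide isomerase P4hb (250 and 2945 counts in wild-type and db, 4.81-fold, 4.23 to 5.5) and the calcium binder Calr (3.30-fold, 2.81 to 3.90). Of 23 translocon and signal peptide genes 8 were higher and 2 lower (median 0.59, or 0.07 above that of all features), a share near the 37.5% of all features. The lower ones were Srp14 and Srp72, proteins of the signal recognition particle, each with 11 counts in wild-type and 7 in db. Of 30 solute carriers of the hepatocyte 18 were higher and 2 lower, and 9 had passed through db alone. Among the higher ones was Slc27a2, a fatty acid transporter and acyl-CoA synthetase, at 131 and 1729 counts (5.39-fold, 4.51 to 6.49). Of 25 lysosomal genes 13 were higher and 0 lower, and 6 had passed through db alone. Among the higher ones were Psap (3.74-fold, 3.11 to 4.53), the precursor of saposins, and Grn (6.00-fold, 3.77 to 10.1), the progranulin gene. Of genes outside these lists, Lrp4, a single-pass receptor, had 1 and 73 counts in wild-type and db, the drug exporter Slc47a1 had 1 and 81, and the lipid transporter Abca3 had 13 and 524 (16.5-fold, 9.54 to 31.1). Igf2r, which carries lysosomal enzymes (3 and 147 counts), and Furin, a protease that trims proproteins in the Golgi (6 and 246), were chosen after their values were seen.

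On the lower side, major urinary proteins led. These Mup genes on chromosome 4 encode pheromone carriers that the liver secretes under growth hormone and androgen control. All 19 Mup genes past the filter were lower in db, by 1.15 to 3.34 on the log2 scale. Together they had 25734, 9533, 599 and 16385 counts across wild-type, ob, NASH and db, 3.85-fold lower in db (3.77 to 3.92), or 2.52-fold to 5.88-fold over the scalings. Mup7 had 2732, 428, 15 and 658 counts, 10.2-fold lower in db (9.33 to 11.1), and Mup3 had 1601, 551, 24 and 1498, 2.62-fold lower (2.44 to 2.81). Transcripts of Mup7 and Mup15 are 94.8% identical, so single members are uncertain while the family sum is less so.

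Other genes that depend on growth hormone or sex went both ways. Of 22 list members past the filter 7 were Mup genes, and of the other 15 genes 7 were higher and 6 lower (median 0.73), with 5 passing through db alone. Elovl3, a fatty acid elongase, had 63, 7, 0 and 25 counts across wild-type, ob, NASH and db, 6.17-fold lower in db (3.83 to 10.2). Slco1a1, an organic anion carrier, had 87, 0, 2 and 52 counts, 4.10-fold lower (2.87 to 5.89), and Serpina1e, an antitrypsin paralog, had 1439, 208, 41 and 650, 5.42-fold lower (4.94 to 5.96). All 3 had their highest CPM in wild-type. Cyp4a12a, another fatty acid hydroxylase of the list, went the other way with 35, 97, 1 and 642 counts (7.49-fold higher, 5.33 to 10.9). Cyp2a4, Cyp2b10 (2 and 54 counts in wild-type and db) and A1bg (0 and 13) were also higher. The list was not split by the sex in which a gene is the higher, and the sex of the mice did not enter the comparison. Its counts of higher and lower therefore have no common direction to read. Mug2, a murinoglobulin protease inhibitor, had 321 and 132 counts in wild-type and db, 5.95-fold lower (4.85 to 7.35), whereas Mug1, 93.3% identical, had 1576 and 3124 (1.24-fold lower, 1.16 to 1.31).

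Transcripts of the translation machinery and the cytoskeleton were lower or level. Of 71 cytosolic ribosomal protein genes, 0 were higher and 25 lower (median -0.66, from -1.25 to -0.08 over the scalings), which is 1.18 below the median of all features. Rplp1, a stalk protein, had 31 counts in wild-type and 78 in db (1.03-fold, 0.670 to 1.61), and Rpl29, a large-subunit protein, had 17 and 4 (10.4-fold lower, 3.39 to 42.5). Of 20 translation factors 0 were higher and 8 lower. Eef1a1, the elongation factor that brings aminoacyl-tRNA, had 258, 307, 379 and 269 counts across wild-type, ob, NASH and db, 2.35-fold lower in db (1.97 to 2.80). Of 17 actin, tubulin and keratin genes 14 were lower and 1 higher. Actb, beta-actin, had 207, 200, 604 and 179 counts, 2.83-fold lower in db (2.31 to 3.48), and Tmsb4x, the actin monomer binder thymosin beta 4, had 90, 65, 205 and 64, 3.44-fold lower (2.47 to 4.82). The exception was Krt8, an epithelial keratin, with 1 and 13 counts in wild-type and db (ratio 5.31, 0.798 to 226). RNA processing genes had 0 of 11 higher and 4 lower, and all 3 histone genes past the filter, among them the replacement histones H3f3a and H3f3b, were lower.

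**Figure D5:**
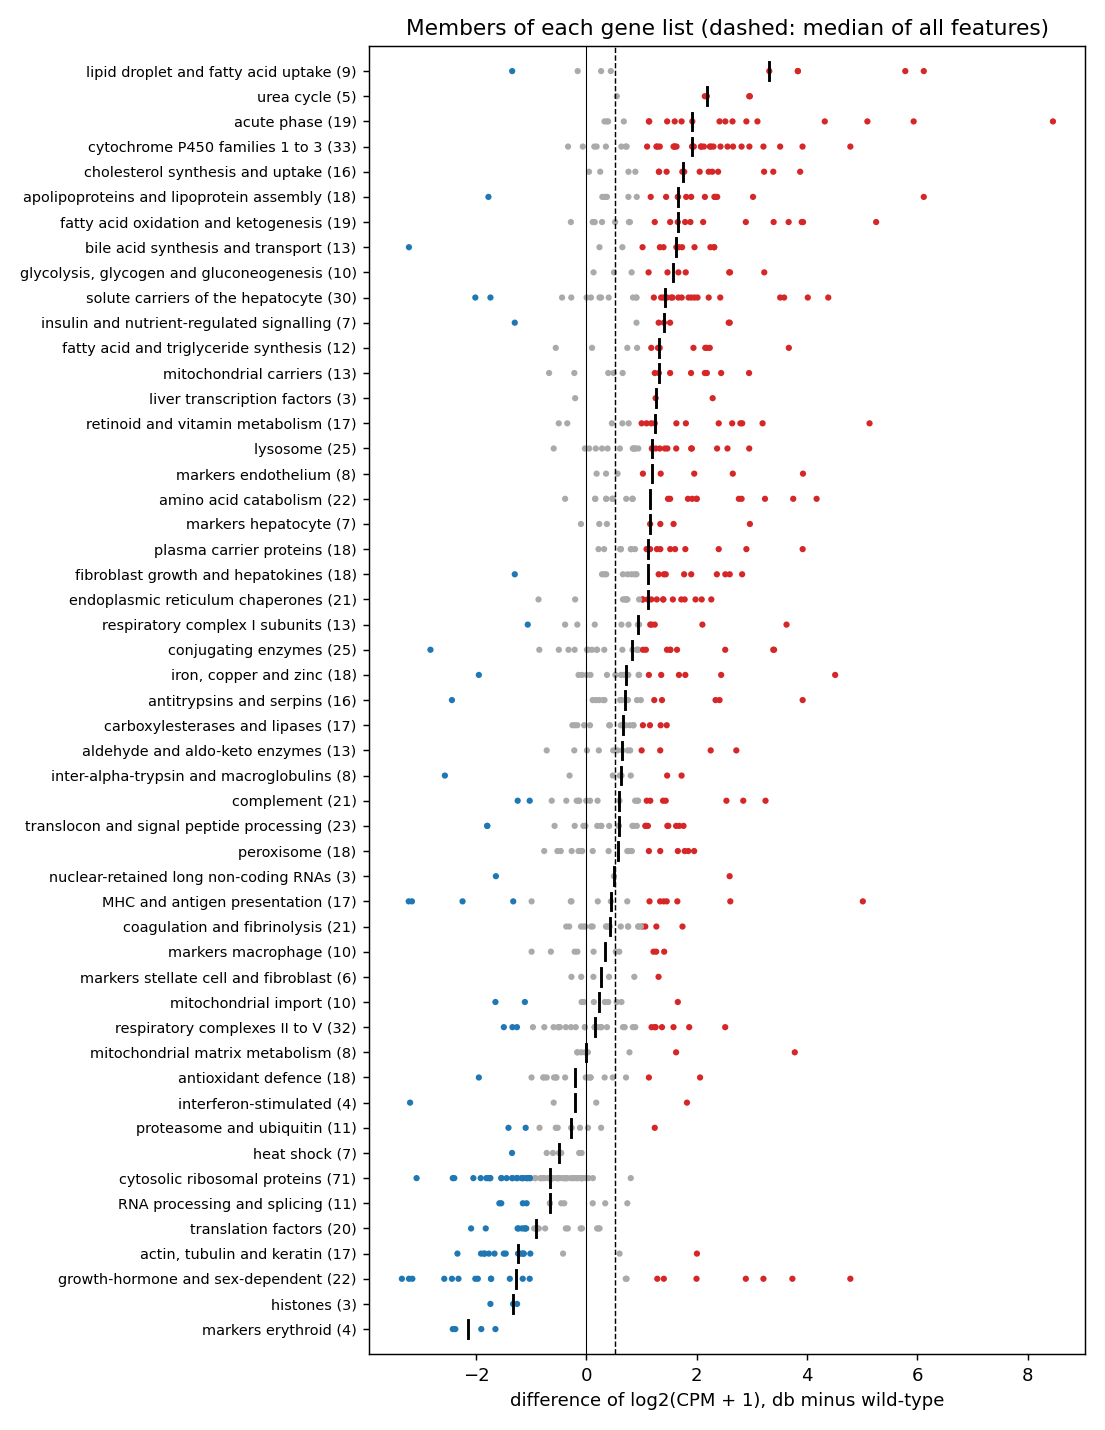
Points are list members past the filter, placed by the difference of log2(CPM + 1), db minus wild-type, in red where at least 2-fold higher, blue where at least 2-fold lower and grey between; black bars are list medians, the dashed line is the median of all features (0.52), and numbers in parentheses count members. Acute phase, P450 and cholesterol lists have no blue point, and the ribosomal protein and translation factor lists have no red one.

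Nuclear genes of the mitochondrion itself did not move as a block. Of 13 complex I subunits 5 were higher and 1 lower, and all 13 had passed the filter through db alone. Over all features kept that way, 830 of 1690 were higher and 14 lower. Of 32 subunits of complexes II to V 7 were higher and 3 lower (median 0.15, from -0.40 to 0.71 over the scalings). Of the 32, 20 had passed through db alone, and 3 were higher and 3 lower with an interval that excluded equality. Cox6a1, a subunit of cytochrome oxidase, had 9 and 83 counts in wild-type and db (3.77-fold higher, 1.89 to 8.53), whereas Uqcrc1, a core protein of complex III, had 26 and 26 (2.45-fold lower, 1.37 to 4.39). Of 13 metabolite carriers of the inner membrane 8 were higher and 0 lower, but 10 of the 13 had passed through db alone, and 5 were higher with an interval that excluded equality. Matrix metabolism had 2 of 8 higher and 0 lower, with Nnt among the higher, and all 8 had passed through db alone. Of 79 mitochondrial ribosomal protein genes 1 passed the filter, Mrpl51, with 10 and 3 counts.

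Genes of the major histocompatibility complex (MHC), which presents peptides to T cells, went both ways, with 7 of 17 list members higher and 4 lower (median 0.44, from -0.16 to 1.05 over the scalings). Of the 17, 6 had passed through db alone. H2-K1, a classical class I gene, had 286, 1178, 93 and 147 counts across wild-type, ob, NASH and db, 4.76-fold lower in db (3.89 to 5.85). Its class I relative H2-D1 had 100, 502, 83 and 620 counts, 2.53-fold higher (2.05 to 3.16). Gm11127, a class I-like gene in the same region of chromosome 17, had 1, 16, 1 and 111 counts, a ratio of 45.3 (7.97 to 1807), and H2-Q2 had 0, 2, 0 and 33 counts, at least 4.49-fold higher. Of the class II genes, H2-Aa had 29, 45, 60 and 7 counts, 10.1-fold lower (4.35 to 27.4), and H2-Ab1 had 15, 40, 35 and 3. The C57BLKS strain carries another MHC haplotype than C57BL/6J, and the reads were aligned to mm10, a C57BL/6J genome, so expression, haplotype and mapping cannot be told apart at these genes.

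Markers of other cells were few, and in such bulk RNA fewer cells of a type and less RNA per cell cannot be told apart. Of 10 macrophage markers 3 were higher and 0 lower (median 0.33, from -0.26 to 0.93 over the scalings), and their summed counts were 1.28-fold higher in db (1.09 to 1.5). Clec4f, a lectin of the resident Kupffer cell, had 26 and 171 counts in wild-type and db, and without it the sum was 1.07-fold (0.900 to 1.28), an interval that includes equality. Cd74, the class II chaperone, had 50 and 61 counts. Of 8 endothelial markers 5 were higher and 0 lower (summed 2.14-fold, 1.59 to 2.93), and 6 of the 8 had passed through db alone. Stellate and fibroblast markers were near level in sum (1.12-fold, 0.921 to 1.38). All 4 globin genes past the filter were lower: Hbb-bs had 23, 830, 2 and 10 counts across wild-type, ob, NASH and db, 5.63-fold lower in db (2.58 to 13.3). No marker of cholangiocytes, T and B cells, neutrophils, platelets, pancreatic acinar cells or adipocytes passed the filter; the acinar markers summed to 20 counts in wild-type and 1 in db.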

How the data were processed

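Liver mitochondrial total RNA was measured in 4 libraries, 1 per group. A strand-keeping NEBNext kit with ribosomal RNA depletion followed extraction with a miRNeasy Mini Kit, per the labels' protocols. The tools named were TopHat2 2.1.1, Bowtie2 2.3.2, Trimmomatic 0.32 and bcl2fastq 2.20, with build mm10, per the submitters' processing notes. Not given in the sources used here are the counting program, its annotation, its strand setting and its handling of multiply mapped reads. The authors deposited raw expected counts with fractions, per the file headers, and TMM-normalized values on a log2 scale, which served only as an alternative scaling.

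Expected counts were rounded to whole counts. TMM factors came from edgeR 4.0.16 in R 4.3.3 over the 4 libraries (0.687 in wild-type, 1.05 in db). Differences were of log2(CPM + 1) for features with 10 or more counts in either library. The floor of 3 counts was 6.95 CPM in wild-type and 2.84 in db. Intervals and shares are exact binomial (Clopper-Pearson) at 95% and cover only the error of counting, as reads with no molecular identifiers may repeat 1 molecule. Names came from GENCODE M21, which held 95.3% of feature IDs and 99.6% of those past the filter. Resemblance to mitochondrial genes came from BLAST 2.17.0+ and required 85% identity over at least 50% of a transcript. Python 3.11.15 with numpy 2.4.6, pandas 2.3.3, scipy 1.17.1 and matplotlib 3.10.9 was used, and the steps were tested on simulated data. The alternatives tried were 5 other scalings, DESeq2 1.42.0 size factors among them, other filters, a larger pseudocount and counts of 0 set to the floor.

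Named genes were the 15 largest differences per direction with 50 or more counts, the 15 features with most counts in each library, up to 5 per direction of each Gene Type and of each list, the 10 per direction with the interval farthest from equality, and the label genes. Others, among them Actb, Cyp3a11, H2-D1, Hmgcs1, Lcn2 and Mup3, were chosen after their values were seen. The members, lists and rules were chosen with earlier results of these data known. Some genes are not reported here.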

Additional observations from a re-analysis of the deposited data

How the results depend on the processing

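The number of called features depended on the scaling. Of the 1146 features higher and 472 lower, plain library totals gave 1613 and 230, the submitters' own scaling 1523 and 262 lower, TMM over the wild-type and db libraries only 809 higher and 732 lower, and totals without mitochondrial-like features, signal recognition particle RNA and repeat copies 742 and 807. DESeq2 size factors gave 1273 and 395. With intervals that exclude equality (793 higher, 404 lower), plain totals gave 1250 and 163, the submitters' scaling 1180 and 195, TMM over 2 libraries 455 and 621, and the reduced totals 398 and 678. These scalings moved the median of all features by 0.58, 0.47, -0.44 and -0.55 on the log2 scale, and the share of higher among called features from 70.8% to between 47.9% and 87.5%. A filter of 1 count gave 2874 higher and 3934 lower (1040 lower with an interval), a filter of 50 counts gave 433 and 55 (433 and 55 with intervals), and a pseudocount of 10 CPM gave 735 and 301 features, at which the intervals removed none. Counts of 0 at the floor gave 1064 higher. Of 295 named features called, 214 stayed called under all 6 scalings. All 295 kept their direction, but a change of scaling shifts every feature by nearly the same amount. These shifts were smaller than the log2 difference of 1 needed for a call, so a called feature could hardly change direction. The median of 15 of 54 lists changed sign between scalings, among them complement, coagulation, complexes II to V, macrophage and MHC lists. Relative to the median of all features 2 lists did, but a common shift nearly cancels in that measure. No paired analysis was possible because each group has 1 library. With 627890 wild-type counts, 53.2% of them mitochondrial-like, depth limits every gene with few wild-type counts.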

Other observations

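Transcripts of sperm development were found in all 4 liver libraries, a group singled out after its values were seen. Prm1, a protamine that packs sperm DNA, had 78, 61, 34 and 74 counts across wild-type, ob, NASH and db. Prm2, the second protamine, had 94, 81, 34 and 86 counts, and Tnp2, a transition protein, had 57, 39, 28 and 40. Odf2, of the sperm tail's outer fibres, had 65, 58, 30 and 46 counts, and Tcp11, a testis gene, had 56, 45, 29 and 44. Their raw counts differed less between wild-type and db than library size did, so all 5 were called lower in db, by 2.58-fold for Prm1 (1.85 to 3.60) to 3.49-fold for Tnp2 (2.29 to 5.36).

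Gm20425, annotated as protein-coding, ranked among the 15 features with most db counts, with 2303, 10188, 501 and 20711 counts across wild-type, ob, NASH and db (3.67-fold higher, 3.52 to 3.84). It overlaps Trf, the transferrin gene, by 26307 bases on the same strand, and Trf had 650, 2419, 304 and 5520 counts (3.47-fold, 3.20 to 3.77), so reads of the pair cannot be told apart. Lars2, the mitochondrial leucyl-tRNA synthetase, had 2308, 3300, 620 and 3039 counts across wild-type, ob, NASH and db, among the 15 highest in wild-type (1.86-fold lower in db, 1.76 to 1.96).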
